A study of Homo sapiens with 414 samples.

Results

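The 9 genes described here are 3 interferon-induced transmembrane genes (IFITM1, IFITM2, IFITM3), 3 major histocompatibility complex (MHC) class I heavy chains (HLA-B, HLA-C, HLA-E), the class I light chain B2M, and the class II pair HLA-DRA and CD74. They were picked by name from 19084 genes listed in a table of 414 bulk RNA-seq libraries, with their levels over days and under hydroxyurea, retinoids and dioxin in view. Their levels in these comparisons are therefore a description of how they behaved, and no p-value is given for them where the choice used the comparison. In the GRCh38 annotation the IFITM genes lie on chromosome 11, the HLA genes on chromosome 6, CD74 on chromosome 5 and B2M on chromosome 15.

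The libraries came from H1-NPC, neural progenitors derived from H1, an established human embryonic stem cell line. The cells were thawed, expanded with FGF2, replated without it and exposed to a compound from the day of plating. All wells share this 1 line and medium, including the controls. Wells were lysed on days 1, 2, 3, 4, 6, 8, 10, 15, 21, 27 and 39, and each compound has 1 library a day. The labels class 16 compounds as non-toxic and 29 (266 libraries) as toxic. The 16 are Acetaminophen, Amoxicillin, Aspirin, DMSO (0.1%), Ficoll 400, Fructose, Glucosamine, Glycerol, Glyphosate, Ibuprofen, Naproxen sodium, PEG 3350, PVP, Saccharin, Sorbitol and Sucrose, and their libraries of a day (7 to 16) are the comparison group. Hydroxyurea was given at 250 µM, (trans) Retinoic acid at 1.7 µM, Accutane or Isotretinoin at 0.5 µg/ml (1.66 µM from its formula), Dioxin at 3 nM and 5-Fluorouracil at 10 µM.

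As background, IFITM proteins sit in cell membranes and restrict the entry of many enveloped viruses, and their genes are classical interferon targets. Class I molecules pair a heavy chain with beta-2-microglobulin and show peptides cut by the proteasome to CD8 T cells. HLA-E presents signal peptides of other class I chains to natural killer cells. HLA-DRA encodes the alpha chain of HLA-DR, which shows peptides to CD4 T cells, and CD74 is the invariant chain that guards its groove during assembly. Class I genes can be induced by type I and type II interferon and by NF-kappa B, with NLRC5 as coactivator. Class II genes depend on the coactivator CIITA and are usually a property of professional antigen-presenting cells. Early neural cells are known for low class I levels.

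The promoters of members that moved together are shown because interferon response and MHC promoter elements can be read in them. RefSeq windows (GRCh38.p14) were matched for 6 of the 9 members, and the 250 bases before the annotated start are printed 5′ to 3′ for 5 of them. Capitals mark the interferon-stimulated response element, searched as GAAA, any 2 bases and GAAA again, and TGACG, the core of the X2 box of MHC promoters, on either strand.
IFITM1, chr11:313790-314039, plus strand: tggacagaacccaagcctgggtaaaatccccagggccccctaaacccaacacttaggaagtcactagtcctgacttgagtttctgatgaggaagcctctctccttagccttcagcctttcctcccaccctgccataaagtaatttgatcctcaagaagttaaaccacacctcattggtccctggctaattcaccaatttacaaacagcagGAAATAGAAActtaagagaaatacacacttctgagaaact
IFITM3, chr11:320861-321110, minus strand: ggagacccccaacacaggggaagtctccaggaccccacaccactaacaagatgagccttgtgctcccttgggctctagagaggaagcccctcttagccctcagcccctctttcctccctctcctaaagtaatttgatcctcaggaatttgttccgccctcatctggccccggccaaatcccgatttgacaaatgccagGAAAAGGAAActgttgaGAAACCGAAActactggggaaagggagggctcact
B2M, chr15:44711267-44711516, plus strand: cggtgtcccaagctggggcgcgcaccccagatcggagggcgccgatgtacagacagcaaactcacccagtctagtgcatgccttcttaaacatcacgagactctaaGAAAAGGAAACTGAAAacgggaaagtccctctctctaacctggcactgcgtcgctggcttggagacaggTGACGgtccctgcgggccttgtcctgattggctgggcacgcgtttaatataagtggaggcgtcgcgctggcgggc
HLA-B, chr6:31357180-31357429, minus strand: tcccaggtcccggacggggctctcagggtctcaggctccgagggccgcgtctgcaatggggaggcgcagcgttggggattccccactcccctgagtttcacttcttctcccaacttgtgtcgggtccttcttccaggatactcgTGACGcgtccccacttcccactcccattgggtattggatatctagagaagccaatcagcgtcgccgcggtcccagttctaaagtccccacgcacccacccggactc
HLA-C, chr6:31272093-31272342, minus strand: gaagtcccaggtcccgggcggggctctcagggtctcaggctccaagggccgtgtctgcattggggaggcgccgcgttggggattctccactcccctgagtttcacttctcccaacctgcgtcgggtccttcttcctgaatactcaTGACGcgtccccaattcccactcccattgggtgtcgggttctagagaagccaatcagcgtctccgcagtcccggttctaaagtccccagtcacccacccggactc

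The interferon-stimulated response element was found in the windows of IFITM1 (40 to 31 bases before the start), IFITM3 (at 52 to 43 and at 35 to 26) and B2M (overlapping matches at 144 to 135 and 138 to 129). It occurs in 3.02% of 35116 RefSeq promoter windows, each searched over the 250 bases before its start, as were the windows here. TGACG, present in 21.2% of all windows, lay at 106 to 102 in HLA-B, 105 to 101 in HLA-C and 75 to 71 in B2M, where an ATTGG or CCAAT box (in 32.0% of windows) also followed closer to the start. A kappa B like site, GGGA with CC after 4 free bases (22.6% of windows), was found in HLA-B, HLA-C, B2M and CD74, and the gamma-activated TTCNNNGAA (6.57%) in IFITM1. Neither the aryl hydrocarbon receptor core TNGCGTG (4.52%) nor the retinoic acid receptor repeat of GGTCA and GGTCA 5 bases apart (0.0769%) was found in these 6 windows. A match is a run of letters and not a measured binding site. Only these exact patterns were searched, so a window without a match, such as HLA-B or HLA-C for the interferon-stimulated response element, may still hold a variant form.

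Values are the authors' TPM (transcripts scaled per length and to a fixed library sum), so levels of different genes can be set side by side. No read counts are given, so the depth is unknown and levels near 0 carry no interval. All 9 genes passed the filter on low values (at least 1 TPM in at least 5 libraries, 16318 genes), HLA-DRA and CD74 through their late libraries. Differences are on the log2(TPM + 1) scale, which understates changes of genes near 0. They come from limma fits against the same-day non-toxic libraries, and a gene is called higher or lower where the Benjamini-Hochberg adjusted p over all 16318 genes was under 0.05. The labels do not say whether wells of a compound came from separate thaws, so the errors measure the spread between these libraries, which may be technical. Since RNA was taken from whole wells, fewer cells of a type and less RNA per cell cannot be told apart. The IFITM genes share sequence: 30.3% of the 50-base windows of IFITM1 transcripts also occur in IFITM2, and 12.1% of those of IFITM3 do. The split of reads among them is uncertain, whereas at most 6.05% of windows of a class I member and none of HLA-DRA, CD74 or B2M were shared.

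The cultures expressed neural genes. In non-toxic libraries of day 1, NES averaged 1642 ± 34.2 TPM and SOX2 291 ± 10.1 (SD, n = 16), and TUBB3 averaged 4068 ± 285 TPM on day 10 (n = 15). Compound targets were checked for the 4 main compounds. CDKN1A, the p53 target, was 193 TPM under hydroxyurea on day 10 against 13.1 to 23.3 in non-toxic libraries, and CYP26A1, the retinoic acid hydroxylase, was 608 TPM under (trans) Retinoic acid and 249 under isotretinoin against 92.2 to 123. CYP1B1, an aryl hydrocarbon receptor target, was 51.5 TPM under dioxin on day 39 against 12.1 to 28.6 and within the range on day 6. CYP1A1, the classical target, lay within the non-toxic range on days 1, 6, 10, 27 and 39. Libraries also differed in how TPM ran with transcript length. In 15 of 414 libraries the slope of deviations from the day's controls on log2 transcript length was below -0.15, among them dioxin on days 15 and 21 (-0.182 each), (trans) Retinoic acid on day 21 (-0.167), busulfan on day 3, arsenic and okadaic acid on days 4 and 6, and 1 non-toxic library (ibuprofen, day 8). Without such libraries (trans) Retinoic acid still had 7 members called, and the other compounds' values without them stand beside their results.

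In non-toxic cultures the 9 genes followed 3 courses over 39 days. The IFITM genes and class I genes fell in the first 6 to 10 days and then rose, B2M most in TPM. IFITM2 and IFITM3 had their highest mean on day 15 and lower means after it, while IFITM1 and the class I genes rose on to day 39. HLA-DRA and CD74 started at or near 0 and appeared late. Of the 9 members, 2 were called higher and 5 lower on day 10 than on day 1, against 35.6% and 40.4% of all genes tested. All 9 were called higher on day 39 than on day 10, against 43.6% of all genes tested.

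**Figure D1:**
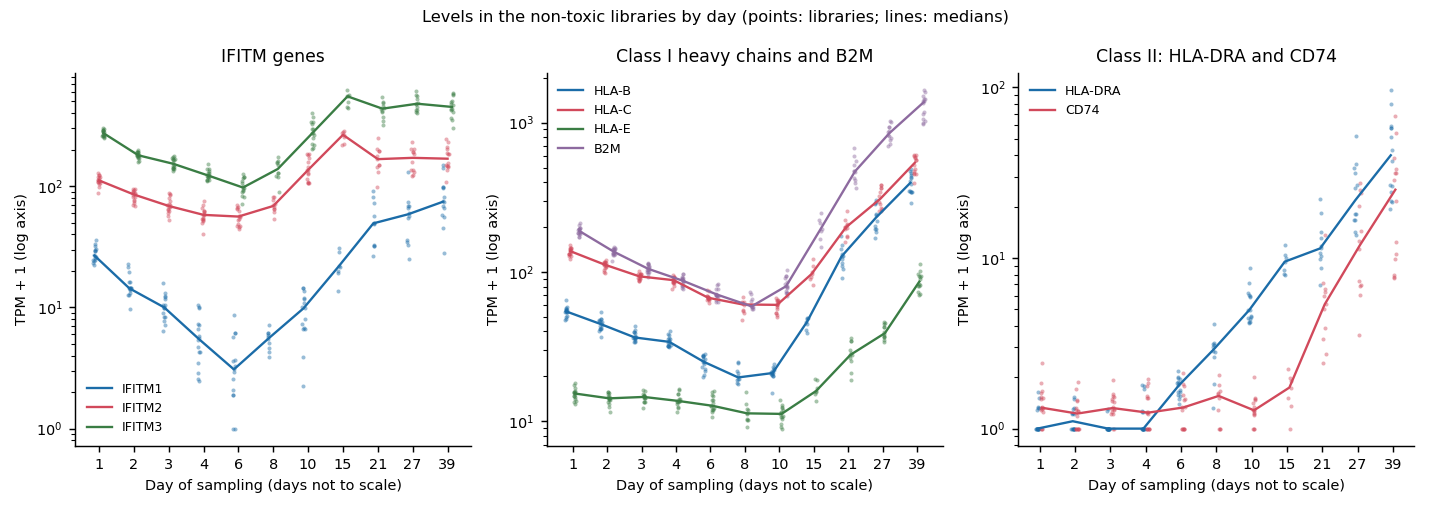
TPM + 1 (log axis) of the 9 genes in the non-toxic libraries by day, with 1 point per library and lines through the day medians. IFITM1 dipped to a median of 2.08 TPM on day 6, B2M climbed to 1372 TPM on day 39, and CD74 held at most 1.43 TPM in any library up to day 15.

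IFITM1 fell furthest early on. Its lowest, median and highest TPM were 21.3, 25.8 and 34.6 on day 1, 0, 2.08 and 7.61 on day 6, 1.26, 8.84 and 13.6 on day 10, and 27.1, 73.5 and 149 on day 39. Days 1 and 6 did not overlap, nor did days 10 and 39, but no neighbouring days were apart and the coefficient of variation within day 39 was 42.2%. IFITM3 was the most abundant of the family, with means of 273 ± 16.1 TPM on day 1, 98.9 ± 15.9 on day 6 and 525.5 ± 65.3 on day 15 (SD, n = 16, 15 and 7). IFITM2 followed it at lower levels, from 111 ± 10.1 on day 1 through 55.0 ± 8.49 on day 6 to 255 ± 26.5 on day 15. For both, libraries of days 8, 10 and 15 formed 3 ranges that did not overlap, and levels after day 15 overlapped between neighbouring days.

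B2M, the chain all class I molecules share, averaged 188 ± 11.5 TPM on day 1, 61.1 ± 6.16 on day 8 and 1297 ± 230 on day 39 (SD, n = 16, 10 and 14). The class I heavy chains fell and rose in step with it. HLA-B averaged 53.5 ± 4.14 TPM on day 1, 20.1 ± 1.95 on day 10 and 395 ± 61.0 on day 39, and HLA-C 136 ± 7.81, 58.4 ± 5.40 and 524 ± 70.0. HLA-E was lower throughout, at 14.3 ± 1.38, 10.2 ± 1.39 and 86.3 ± 12.1 TPM on these days. The day 10 to day 15 and day 15 to day 21 steps of HLA-B, HLA-C and B2M left ranges that did not overlap, while the neighbouring ranges of HLA-E were apart only between days 27 and 39.

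HLA-DRA was listed at 0 in most libraries of the first 4 days (highest value 0.80 TPM). Its lowest, median and highest TPM were then 0.39, 0.79 and 1.17 on day 6, 3.18, 3.97 and 7.69 on day 10, and 18.3, 39.0 and 95.4 on day 39. CD74 came later. Its highest library up to day 15 held 1.43 TPM, and on day 39 the lowest, median and highest were 6.61, 24.2 and 67.4 TPM. The day 8 and day 10 ranges of HLA-DRA and the day 15 and day 21 ranges of CD74 did not overlap. In order of level on day 39, B2M stood first, followed by HLA-C, IFITM3 and HLA-B, whose ranges overlapped each other, then IFITM2, then HLA-E and IFITM1, and last HLA-DRA and CD74. The ranges of B2M and HLA-C were apart, as were those of HLA-B and IFITM2, and all other neighbours in this order overlapped.

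Other antigen presentation and interferon genes were counted from lists of 78 genes, 74 of which were tested. Among the 78 are 28 interferon response genes and 11 interferons, receptors and kinases. From day 10 to day 39, 13 of 14 genes for peptide generation and class I loading rose, with a median log2 difference of 0.99 against 0.05 over all genes. PSMB8 and PSMB9, the immunoproteasome subunits, rose by 3.84 ± 0.16 and 3.70 ± 0.13 (SE), and the peptide transporter subunit TAP1 by 2.91 ± 0.08. HLA-F and HLA-G, less widely expressed class I chains, rose by 0.97 ± 0.11 and 1.74 ± 0.14. Of 28 interferon response genes 22 rose and 3 fell (median 0.96), among them the antiviral IFIT2, IFIT1 and IFI35 with 2.65 ± 0.08, 2.44 ± 0.14 and 2.43 ± 0.13. Among 10 other class II genes 7 rose and 1 fell. NLRC5 rose by 1.05 ± 0.06, and CIITA by 0.16 ± 0.07, to at most 1.36 TPM in a day 39 library.

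Interferon transcripts themselves were scarce: IFNG was listed at 0 in every non-toxic library, and IFNB1 held at most 1.06 TPM. Of 10 microglia and macrophage markers only 3 passed the filter, and none rose from day 10 to day 39 (1 fell). PTPRC, the leukocyte antigen, held at most 0.13 TPM on day 39 and TYROBP was listed at 0. Other cell types' genes did move over this time. All 7 mesenchymal and mural markers rose (median log2 difference 3.65) and their summed level went from 294 to 517 TPM on day 10 to 3341 to 6441 TPM on day 39, and all 6 astrocyte markers rose. Their part in the rise of the 9 genes was not tested.

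Hydroxyurea, an inhibitor of ribonucleotide reductase that starves cells of deoxynucleotides, had the most members called of the 4 main compounds. IFITM1, IFITM2 and IFITM3 lay above every same-day non-toxic library on 11 of 11 days, and HLA-B, HLA-C and B2M on 10 of 11. Of all genes tested, 2.01% lay above on every day. By the fit 8 of 9 members were called higher, all but HLA-DRA, where 28.9% of all genes tested were called higher.

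**Figure D2:**
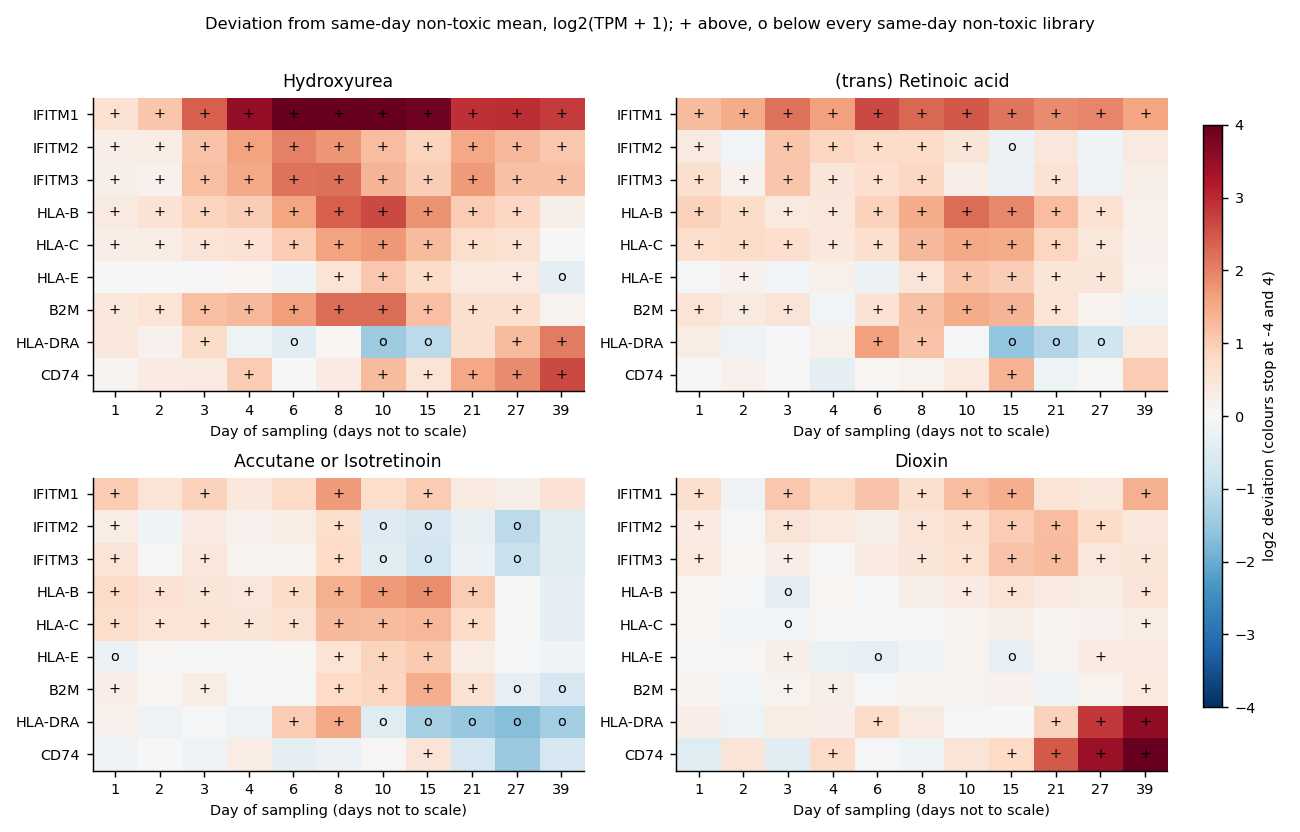
Log2 deviation of each library from its day's non-toxic mean for the 9 genes (rows) by day (columns) under 4 compounds. A plus marks a value above, and an o one below, every non-toxic library of that day. Hydroxyurea is above on 11 of 11 days for each IFITM gene, (trans) Retinoic acid on 11 for IFITM1 and 10 for HLA-B and HLA-C, and the largest dioxin deviations (2.82 to 4.49) are those of HLA-DRA and CD74 on days 27 and 39.

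Under hydroxyurea IFITM1 read 40.5, 31.1, 50.8, 58.6, 72.7, 109, 190, 318, 366, 412 and 514 TPM from day 1 to day 39. It fell on day 2 only, where non-toxic cultures fell until day 6, and the ratio to the non-toxic median was 1.57 on day 1, 34.9 on day 6 and 7.0 on day 39. The fitted log2 difference was 3.04 ± 0.22 (SE, 11 libraries against the non-toxic ones). IFITM3 read 319, 202, 354, 351, 444, 627, 720, 1029, 1370, 1089 and 999 TPM, a difference of 1.26 ± 0.09, and IFITM2 differed by 1.19 ± 0.09. Both were closest to the controls on days 1 and 2, with ratios of 1.13 to 1.19.

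B2M read 252.1, 198, 241, 213, 227, 287, 380, 449, 750, 1334 and 1415 TPM under hydroxyurea, with a difference of 1.11 ± 0.08. HLA-B read 69.3, 65.4, 68.5, 67.1, 72.5, 106, 130, 155, 249, 410 and 460 TPM, a difference of 1.2 ± 0.09, and HLA-C differed by 0.77 ± 0.07. HLA-B stayed between 65.4 and 72.5 TPM up to day 6 while the controls fell, and its ratio to the non-toxic median peaked at 6.48 on day 10 and was 1.16 on day 39, inside the range. HLA-E was inside the range on days 1 to 6, above it on days 8, 10, 15 and 27, and below it on day 39 (65.2 TPM against 69.6 to 111).

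HLA-DRA moved both ways under hydroxyurea. It was above every non-toxic library on day 3 (0.73 TPM, highest control 0.31), below all of them on days 6, 10 and 15 (0.32, 0.95 and 3.59 TPM, where the lowest controls held 0.39, 3.18 and 6.97) and above all again on days 27 and 39 (54.8 and 163 TPM, where the highest held 50.9 and 95.4). CD74 read 13.7, 41.8 and 125 TPM on days 21, 27 and 39, each above the highest control (12.7, 26.7 and 67.4). The late (days 8 to 39) minus early (days 1 to 6) difference was 1.01 ± 0.34 for CD74 and 1.12 ± 0.38 for IFITM1, and for HLA-DRA it was 0.13 ± 0.28. Over the 4 main compounds 21 of 36 such member differences were called, against 25.4% of all gene values. Over all days HLA-DRA differed by 0.22 ± 0.16, and by 0.38 with a call where the day 10 library was left out.

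**Figure D3:**
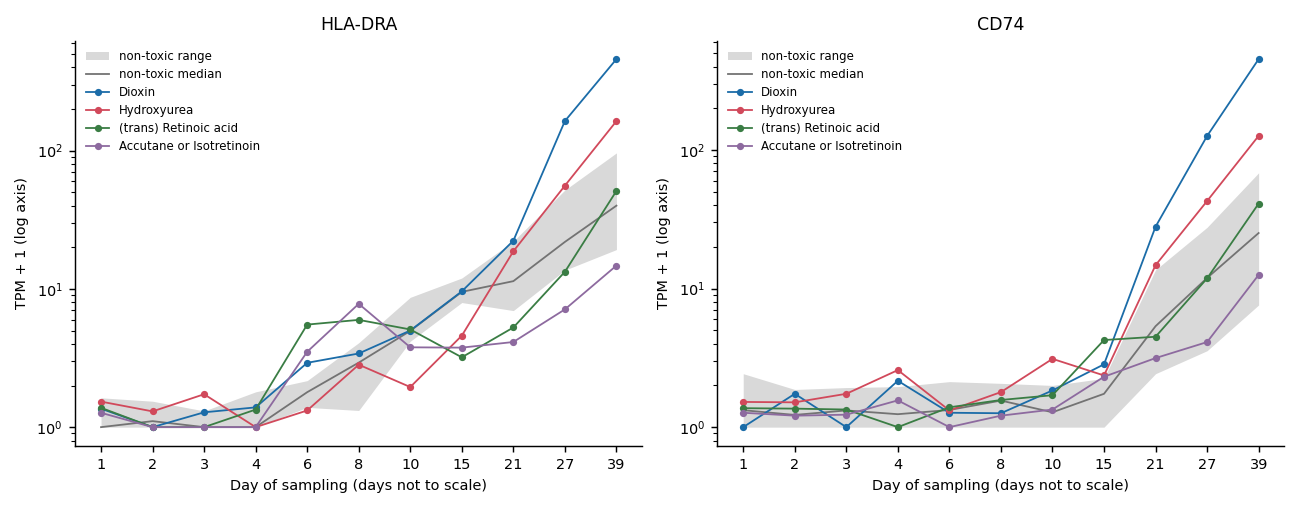
HLA-DRA and CD74 (TPM + 1, log axis) by day under dioxin, hydroxyurea and the retinoids, over the range (grey) and median of the non-toxic libraries. On day 39 HLA-DRA reached 458 TPM under dioxin and 163 under hydroxyurea, and 50.1 and 13.8 under (trans) Retinoic acid and isotretinoin, where non-toxic libraries held 18.3 to 95.4.

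Other pathway genes changed widely with hydroxyurea: of 74 tested, 51 rose and 6 fell (median log2 difference 0.34, all genes 0.01). Among interferon response genes 25 of 28 rose and none fell (median 0.72), and 14 rose against DMSO alone. IFI6, the ubiquitin-like ISG15 and the RNA sensor OAS3 rose by 1.52 ± 0.14, 1.38 ± 0.18 and 1.42 ± 0.13 (SE), and the GTPase MX1 by 1.15 ± 0.15. On day 10 IFI6 held 265 TPM against 21.8 to 51.0 in the controls. Peptide generation and loading genes rose in 12 of 14 cases, PSMB8 by 1.71 ± 0.16 and the peptide trimming enzyme ERAP2 by 1.05 ± 0.08. Among other class II genes 6 of 10 rose, HLA-DPA1 by 0.73 ± 0.15 and HLA-DPB1 by 0.67 ± 0.09. IRF1, a regulator of class I genes, rose by 0.64 ± 0.08 and NFYA, a subunit of the CCAAT binding factor, fell by 0.47 on the log2 scale. Of the 8 interferon, receptor and kinase genes tested 1 rose and 3 fell.

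All 7 mesenchymal and mural markers rose with hydroxyurea (median 1.47) and 4 of 5 endothelial markers did, while 4 of 6 neuron markers fell. The summed mesenchymal level was 3326 TPM on day 10, where the non-toxic libraries held 294 to 517. None of the 3 tested microglia markers was called, and PTPRC was listed at 0 on days 10, 27 and 39. CD68 was 9.64 TPM on day 39, above the control range of 2.15 to 4.79. The part of these cell types in the result was not tested.

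5-Fluorouracil, which blocks thymidylate synthase, was compared with hydroxyurea on the 7 days both have, at doses that differ (10 and 250 µM). IFITM2 and IFITM3 were at like levels, with differences of hydroxyurea minus 5-Fluorouracil of 0.09 (95% interval -0.22 to 0.40) and -0.14 (-0.42 to 0.14). IFITM1 was higher with hydroxyurea by 0.74 ± 0.18 and B2M by 0.95 ± 0.22, differences that are a description because the members were chosen with these libraries in view. Of all genes tested, 11.4% were called higher. The 2 compounds parted late. On days 27 and 39, 5-Fluorouracil gave 230 and 579 TPM of IFITM1, above all non-toxic libraries, but 112 and 119 of HLA-B and 393 and 354 of B2M, below all of them. HLA-DRA (4.12 and 9.52 TPM) and CD74 (0.89 and 0 TPM) were also below the range on these days. Among interferon response genes 13 of 28 were higher with hydroxyurea and none lower, OAS3 by 2.62 ± 0.32 and MX1 by 1.46 ± 0.16. The summed mesenchymal markers were 637 to 899 TPM on these late days with 5-Fluorouracil and 6241 to 8575 with hydroxyurea. The microglia and macrophage list summed to 10.7 to 16.6 TPM with 5-Fluorouracil, above the 2.51 to 7.60 of the controls, with 9 of its 10 genes under 1 TPM. The part of these markers in the difference was not tested.

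The retinoids, which bind retinoic acid receptors, raised HLA-B and HLA-C on most days. With both, HLA-DRA lay above the controls on days 6 and 8 and below them on days 15, 21 and 27. HLA-C was above every non-toxic library on days 1 to 27 with (trans) Retinoic acid and on days 1 to 21 with isotretinoin, HLA-B likewise, and neither was on day 39. (Trans) Retinoic acid also kept IFITM1 above the range on 11 of 11 days, as did 1.32% of all genes tested. It had 7 members called higher and isotretinoin 5 higher and 1 lower (HLA-DRA), against 21.2% and 20.2% of all genes called higher and 21% called lower with isotretinoin.

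HLA-B read 102, 72.6, 47.5, 46.4, 45.4, 55.9, 98.9, 170, 295, 351 and 447 TPM from day 1 to day 39 with (trans) Retinoic acid. With isotretinoin it read 90.7, 66.2, 51.2, 46.6, 39.9, 54.0, 68.1, 164, 250, 229 and 305 TPM. The fall to day 6 was kept, at a higher level, and the ratio to the non-toxic median with (trans) Retinoic acid was largest on day 10 (4.93). The differences from the controls were 1.00 ± 0.08 and 0.78 ± 0.08 (SE) for HLA-B, and 0.81 ± 0.06 and 0.65 ± 0.06 for HLA-C. For B2M they were 0.58 ± 0.07 and 0.28 ± 0.07, and on days 27 and 39 isotretinoin left B2M below all controls (679 and 810 TPM, lowest controls 701 and 983). HLA-E was above the range on day 2 and from day 8 to day 27 with (trans) Retinoic acid and from day 8 to day 15 with isotretinoin, with differences of 0.33 ± 0.07 and 0.21 ± 0.07. The isotretinoin call of HLA-E was lost without the day 10 library (0.14) or the day 15 library (0.13).

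HLA-DRA split by time with both retinoids. HLA-DRA was above all controls on days 6 and 8, at 4.52 and 4.97 TPM with (trans) Retinoic acid and 2.51 and 6.80 with isotretinoin. It was then below all of them on days 15, 21 and 27, at 2.20, 4.26 and 12.3 TPM and at 2.76, 3.13 and 6.11 TPM, where the lowest controls held 6.97, 5.97 and 12.7. Only isotretinoin was also below on days 10 and 39. Late minus early differences, in which day 8 counts as late, were -0.71 ± 0.27 and -0.96 ± 0.28. Over all days isotretinoin left HLA-DRA at -0.38 ± 0.16, a call lost when any of 7 of its 11 libraries was left out (values -0.24 to -0.39). CD74 was above the range only on day 15 with either compound (3.25 and 1.31 TPM, highest control 1.25).

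The 2 retinoids are stereoisomers that differ in the geometry of 1 double bond, all-trans against 13-cis, and were given at near-equal molar doses on the same 11 days. This was 1 of 2 compound pairs compared. IFITM1 stood apart most: 65.6, 40.5, 43.8, 15.3, 17.5, 25.5, 45.8, 93.9, 177, 208 and 223 TPM with (trans) Retinoic acid against 54.0, 20.9, 17.6, 6.05, 4.14, 16.4, 12.7, 42.4, 61.5, 61.4 and 109 with isotretinoin. It was higher with the all-trans form on 11 of 11 days, by 1.21 ± 0.14 on the log2 scale. The members were chosen with their levels under retinoids known, so these differences have no p-value. IFITM2 and IFITM3 were higher too, by 0.55 ± 0.09 and 0.48 ± 0.08, and by 0.53 and 0.44 without day 21. Of all genes tested, 0.533% were called higher. On days 10, 15 and 27 isotretinoin left both below every non-toxic library. The other 6 members were not called between the isomers. Their differences, with 95% intervals, were 0.22 (0.07 to 0.37) for HLA-B, 0.16 (0.05 to 0.28) for HLA-C, 0.12 (-0.02 to 0.26) for HLA-E, 0.29 (0.14 to 0.45) for B2M, 0.37 (0.00 to 0.74) for HLA-DRA and 0.51 (0.11 to 0.91) for CD74. Several of these intervals leave out 0 without passing the adjustment, so the isomers cannot be said to act alike on them.

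**Figure D4:**
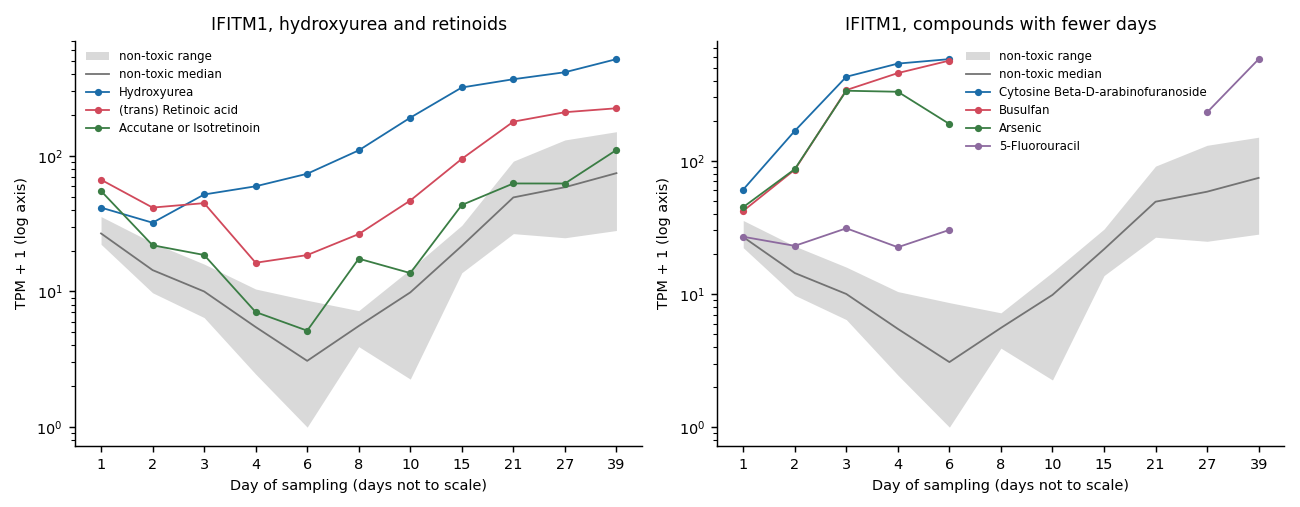
IFITM1 (TPM + 1, log axis) by day, over the range (grey) and median of the non-toxic libraries. Left, hydroxyurea and (trans) Retinoic acid are above the range on 11 of 11 days and isotretinoin on 4. Right, compounds with fewer days, with 579 TPM under Cytosine Beta-D-arabinofuranoside on day 6 and 579 under 5-Fluorouracil on day 39.

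In the wider pathway the retinoids raised loading genes, 11 of 14 with (trans) Retinoic acid and 10 of 14 with isotretinoin, and 1 fell with each. PSMB8 rose by 1.37 ± 0.15 and 0.97 ± 0.15 and the transporter subunit TAP2 by 0.86 ± 0.08 and 0.67 ± 0.08. Interferon response genes moved in both directions, 7 up and 4 down with (trans) Retinoic acid and 4 up and 6 down with isotretinoin, with medians of -0.02 and -0.05. Against DMSO alone 2 and 1 were called higher. The 7 up with (trans) Retinoic acid, and the 4 up and 6 down with isotretinoin, of 28 are near the shares of all genes tested. Those were 21.2% called higher with the first compound, and 20.2% higher and 21% lower with the second. BST2, the antiviral tetherin, rose by 0.97 ± 0.15 and 0.59 ± 0.12, and IFI44L fell by 1.32 and 1.24 on the log2 scale. On day 39 BST2 was 27.8 TPM with (trans) Retinoic acid against 0 to 2.70 in the controls. Between the isomers 1 of 74 pathway genes was called, PSME1 of the proteasome activator, higher by 0.18 ± 0.04 with the all-trans form, a call lost with libraries centred on their median and without day 21. The summed mesenchymal markers were 1137 to 1183 TPM with (trans) Retinoic acid and 1079 to 1390 with isotretinoin on days 27 and 39, below the 3341 to 6685 of the controls, and no microglia marker was called. Of 5 endothelial markers tested 3 rose with each retinoid (medians 0.43 and 0.59), and of 7 neural crest and surface ectoderm markers 5 and 4 rose and 1 fell with each (0.66 and 0.72). Of 6 neural progenitor markers 4 fell with each and none rose (-0.77 and -0.54). The part of these markers in the results was not tested.

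Dioxin, a ligand of the aryl hydrocarbon receptor, gave the highest class II levels, with the highest HLA-DRA and CD74 values among all 414 libraries. On days 21, 27 and 39 HLA-DRA read 21.3, 163 and 458 TPM and CD74 26.9, 125 and 451 TPM. The highest non-toxic libraries of these days held 21.1, 50.9 and 95.4 TPM of HLA-DRA and 12.7, 26.7 and 67.4 of CD74. Up to day 10 neither gene exceeded 4.00 TPM. The IFITM genes were moderately higher and class I genes stayed close to the controls.

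On day 39 the ratio to the non-toxic median was 11.8 for HLA-DRA and 18.7 for CD74. Over all 11 days the differences were 0.81 ± 0.17 for HLA-DRA and 1.07 ± 0.23 for CD74 (SE), and late minus early they were 1.00 ± 0.29 and 1.87 ± 0.39. On days 1 to 6 alone none of the 9 members was called, against 6 of 9 on all days, all higher, where 2.95% of all genes were called higher. With DMSO as the only control, and so 11 libraries against 11, none was called either. The share of all genes called in these smaller fits is not given here. Fewer libraries can also lower a count of calls, so the lack of calls does not show that the members were unmoved. The day 27 and day 39 libraries had length slopes of -0.0071 and -0.046, not below the -0.15 limit. The day 39 slope was nonetheless below those of all non-toxic libraries of that day (-0.017 to 0.016). The part of this trend in the values was not tested.

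IFITM3 read 358, 191, 185, 127, 124, 189, 426, 1158, 1009, 654 and 623 TPM from day 1 to day 39 under dioxin, above all controls on 8 of 11 days, with a difference of 0.50 ± 0.07. Its peak fell on days 15 and 21, the libraries with the length trend. IFITM2 differed by 0.53 ± 0.09 and IFITM1 by 0.84 ± 0.19, with 200 TPM of IFITM1 on day 39 against at most 149 in the controls. Without days 15 and 21 the calls of IFITM2, IFITM3 and HLA-DRA remained (0.41, 0.35 and 0.89), while CD74 (0.95) and IFITM1 (0.81) were no longer called. B2M, HLA-B and HLA-C lay above the range on day 39 (1693, 560 and 640 TPM), and their differences over all days were 0.10 ± 0.06, 0.17 ± 0.06 and 0.07 ± 0.05. The HLA-B call was lost without any of 7 of the 11 libraries, with values of 0.13 to 0.18. HLA-E differed by 0.01 ± 0.06.

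Among the other class II genes 6 of 10 rose with dioxin and none fell (median log2 difference 0.38, all genes -0.07). The count was 3 without day 15, 2 without day 21, 3 without day 39, 0 on days 1 to 6 and 0 against DMSO alone. On day 39 HLA-DRB1 read 218 TPM (controls 5.97 to 41.6), HLA-DPA1 142 TPM (2.77 to 23.2), HLA-DQA1 40.5 TPM (0 to 2.46) and HLA-DRB5 52.0 TPM (0.90 to 6.92). HLA-DMA, which edits the peptides of class II, read 43.7 TPM (9.37 to 16.98). CIITA, the class II coactivator, read 5.39 and 6.69 TPM on days 27 and 39, where controls held at most 0.85 and 1.36. Over all days it differed by 0.50 ± 0.10. This is a description, because the gene lists were chosen with earlier results of these data known. No value of CIITA without single libraries or against DMSO alone is given here. Under hydroxyurea CIITA read 1.46 and 4.95 TPM on these days. Of 28 interferon response genes none rose and 1 fell, STAT2, by 0.22 on the log2 scale, with 3 at an unadjusted p under 0.05 by limma. With libraries centred on their median, 4 of the 28 were called higher. Of 14 loading genes 1 rose.

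Markers of antigen-presenting cells were near 0 in these libraries. On days 27 and 39 under dioxin AIF1, CSF1R, TYROBP and ITGAM were listed at 0 and PTPRC held 0 and 0.09 TPM. The 10 microglia and macrophage markers summed to 5.21 and 2.82 TPM, within the 2.51 to 7.60 of the controls, nearly all of it CD68. The 6 B cell and dendritic cell markers summed to 2.22 to 2.52 TPM, against 1.32 to 2.87. The mesenchymal markers summed to 4175 to 4631 TPM, within the 3341 to 6685 of the controls, and 3 of 7 were called lower over all days.

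Across all 44 compounds with at least 3 libraries, IFITM1 spanned the widest range, from -1.07 to 4.87 among 28 toxic compounds and from -0.61 to 0.68 among 16 non-toxic ones. It was called higher for 12 toxic compounds and lower for 1. HLA-C was called higher for 14 and IFITM3 for 13, whereas HLA-DRA was called lower for 6 and higher for 4. Pooled over the fits of the 28 toxic compounds, 14.1% of all gene values were called higher and 17.9% lower. Among the non-toxic compounds each set against the others, 2 of 144 member values were called, against 2% of all gene values, both lower: IFITM3 with DMSO (-0.28 ± 0.06) and HLA-C with ibuprofen (-0.15 ± 0.05).

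**Figure D5:**
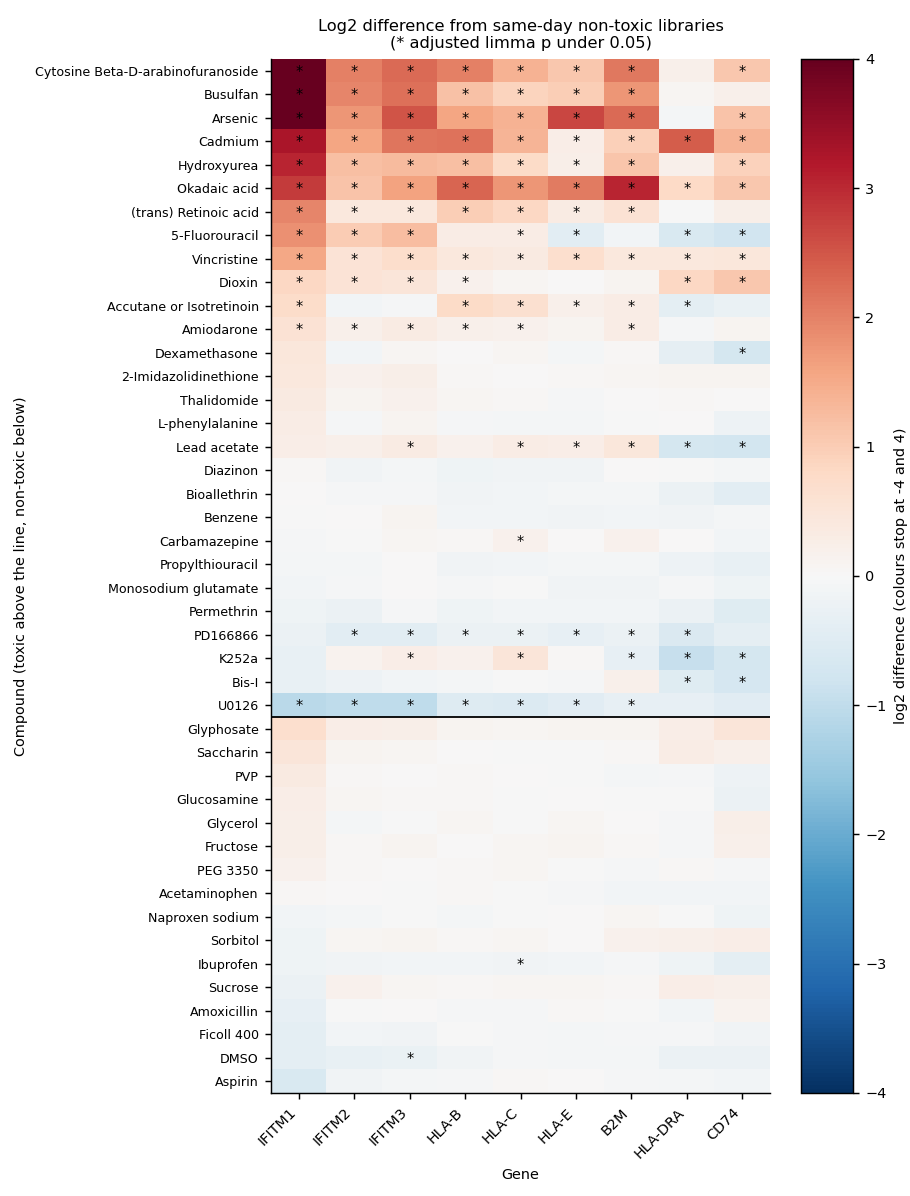
Log2 difference of each of the 9 genes from the same-day non-toxic libraries for 44 compounds, toxic above the line and ordered by IFITM1, with a star where the adjusted limma p was under 0.05. IFITM1 is highest with Cytosine Beta-D-arabinofuranoside (4.87) and lowest with U0126 (-1.07), and HLA-DRA and CD74 do not follow that order.

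Compounds sampled only on days 1 to 6 gave the largest fitted difference of each of the 9 genes. Their fits cover these early days alone, whereas fits of compounds sampled to day 39 average over early and late days. A late library could deviate more: the largest fitted CD74 difference was 1.37, while dioxin's day 39 library deviated by 4.49. Cytosine Beta-D-arabinofuranoside, a chain-terminating nucleoside at 5 µM, took IFITM1 from 59.9 TPM on day 1 to 167, 427, 536 and 579 TPM on days 2, 3, 4 and 6. The alkylating agent busulfan (50 µg/ml) gave a difference of 4.44 ± 0.39 for IFITM1 and 1.77 ± 0.13 for B2M. Arsenic (5 µM) gave 4.05 ± 0.35 for IFITM1 and 2.67 ± 0.07 for HLA-E. Okadaic acid, a phosphatase inhibitor at 3 nM, gave the largest B2M difference, 3.05 ± 0.17, with 405, 557, 1074, 1133 and 2370 TPM against controls that fell from 187 to 69.6 (medians). Cadmium (50 µM) gave early HLA-DRA, with 7.75, 12.7, 5.23, 3.34 and 2.67 TPM of HLA-DRA on days when no non-toxic library held more than 1.17. Without the libraries of the length trend, IFITM1 differed by 4.28 with busulfan and 2.78 with arsenic, HLA-E by 2.60 with arsenic, and B2M by 1.67 with busulfan and 2.16 with okadaic acid, all still called. Of 28 interferon response genes 27 rose with the arabinofuranoside, 25 with busulfan, 23 with arsenic and 19 with okadaic acid, where 40.9%, 29.5%, 34.8% and 35.1% of all genes tested rose. Without the libraries of the length trend these counts were 21 for busulfan, 18 for arsenic and 15 for okadaic acid. With cadmium 8 of the 28 rose and 11 fell, where 24.6% of all genes rose and 59.4% fell. Among genes of at least 10 TPM the median shifted by -0.67 with cadmium, -0.36 with arsenic and -0.11 with okadaic acid. With libraries centred on their median, 19 of the 28 rose with cadmium and all 9 members were still called.

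The MEK inhibitor U0126 (10 µM) was the only compound with all 3 IFITM genes called lower. IFITM3 was below every non-toxic library on 10 of 10 days, as were 0.0797% of all genes tested, and differed by -1.03 ± 0.08, IFITM2 by -1.002 ± 0.09 and IFITM1 by -1.07 ± 0.22. HLA-B, HLA-C, HLA-E and B2M were called lower as well, where 15.3% of all genes tested were. On day 39 HLA-B read 103 TPM and B2M 426 TPM, where the lowest controls held 287 and 983. The FGF receptor inhibitor PD166866 gave smaller values in the same direction, with -0.42 ± 0.07 for IFITM3 and -0.24 ± 0.06 for B2M. Lead acetate (30 µM) and the kinase inhibitor K252a (30 nM) had HLA-DRA called lower (-0.69 ± 0.14 and -0.91 ± 0.16) together with HLA-C called higher (0.30 ± 0.07 and 0.47 ± 0.08). Vincristine (1 nM) had all 9 called higher, where 33.1% of all genes tested were, but only 4 without its day 6 library, when the values of IFITM2, HLA-B, HLA-C and B2M were negative. Its day 4 library stood apart by a median shift of -1.05, and the comparison by -0.23. With libraries centred, all 9 were called.

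The genes most alike in pattern were often other members. Over 414 libraries, as deviations from the controls of the day, the genes most like IFITM3 were IFITM2 (Pearson r 0.95), IFITM1 (0.86) and TIMP1 (0.84), and among those most like HLA-B were HLA-C (0.95) and B2M (0.87). HLA-DRA was most like CD74 (0.68), HLA-DRB1 (0.67) and HLA-DPA1 (0.58), and PDLIM1 (0.86) was among the 3 most like B2M. IFITM1 and HLA-DRA had an r of 0.28. These points share compounds, days and library effects, and the IFITM values share reads, so the coefficients are a description. Over the 11 day means of the non-toxic libraries, B2M was most like GHR, BTN3A2 and CPQ and PHYHIP and CCKBR were among the 3 most like HLA-DRA (r 0.99 to 1.00 over 11 points).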

How the data were processed

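Gene-level TPM values (transcripts scaled to a fixed sum per library) of 414 libraries were used as deposited by the authors. Reads were handled with CASAVA 1.8.2, Bowtie 0.12.8 and RSEM 1.2.1 on hg19, per the submitters' processing notes. RNA was taken with RNeasy 96 and libraries were made with the TruSeq RNA v2 kit, per the labels' protocols. Columns summed to 999999 to 1000001, and 11377 to 17188 genes a library held at least 1 TPM. No counts are given, so depth is unknown and precision rests on the spread between libraries.

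Values were fitted as log2(TPM + 1) with limma 3.58.1 (R 4.3.3, intensity trend) over the 16318 genes that reached 1 TPM in 5 libraries or more. Each compound was set against the non-toxic libraries of the days it was sampled, using a day factor and a random compound block (correlation 0.02124). Pairs of compounds were fitted over the days both have, again with a day factor. P-values were adjusted by Benjamini-Hochberg over all genes tested. Maneb, with 1 library, was not fitted. Numbers given to libraries in accession order only name them. On simulated data, 96% of planted differences of 0.5 were recovered for hydroxyurea and 88% for the retinoid pair (16318 genes each). Each was planted at the same size on every day, with normal noise of a fixed spread per gene and no link between libraries of a compound. These shares do not cover differences that change over days, as those of many members did.

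The members, gene lists and tests were chosen with earlier results of these data known. Named were all members, the called genes of each list with the largest difference (up to 5 a comparison and list), marker and target genes, and, of the 3 genes most like each of 5 members, those reported here. Some genes of these lists are not reported here. Alternatives were another pseudocount, no filter, centred libraries, no block, other controls, other days, and leaving out each library. For busulfan, arsenic, okadaic acid, cadmium, vincristine and the retinoid pair, leaving out libraries with a length trend or centring was chosen after seeing the data. Promoter windows (GRCh38.p14) and chromosomes came from RefSeq, and shared sequence from GENCODE 29 (GRCh38). An hg19 genome was not used here.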

Additional observations from a re-analysis of the deposited data

Results flagged for a closer look

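In 4 of 90 sets, each of 1 gene and 1 toxic compound over its days, 1 library lay far from the others of its set. The 18 non-toxic sets were each of 1 gene on day 8 or day 15, tested on TPM, and 0 were flagged. They mix compounds within a day, so the 2 counts are not a like comparison. Chance alone flags about 1 set in 20. The toxic sets were tested, and are given here, as log2 deviations from the day's controls. IFITM3 with vincristine was 3.07 on day 6, where the other 4 libraries lay between -0.06 and 0.51. CD74 with vincristine was 2.59 on day 4, where the others lay between -0.38 and 0.22. CD74 with U0126 was -3.13 on day 39, where the other 9 lay between -1.21 and 0.39. B2M with 2-Imidazolidinethione was -0.30 on day 6, where the others lay between 0.01 and 0.28.

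The difference from the non-toxic libraries was compared between early (days 1 to 6) and late (days 8 to 39) libraries. By limma contrasts adjusted over all genes, 21 of 36 member and main compound pairs were called, against 25.4% of all gene values. The members were chosen with these libraries in view, so the differences are a description. Values are late minus early on the log2 scale, with their SE. With hydroxyurea the late difference was larger for IFITM1 (1.12 ± 0.38), HLA-B (0.59 ± 0.15), HLA-C (0.45 ± 0.11), HLA-E (0.47 ± 0.12) and CD74 (1.01 ± 0.34). With (trans) Retinoic acid it was larger for HLA-B (0.59 ± 0.14), HLA-C (0.31 ± 0.10), HLA-E (0.63 ± 0.11) and B2M (0.38 ± 0.13), and smaller for IFITM3 (-0.38 ± 0.13) and HLA-DRA (-0.71 ± 0.27). Isotretinoin gave larger late values for HLA-E (0.47 ± 0.12) and B2M (0.34 ± 0.13), and smaller ones for IFITM2 (-0.57 ± 0.16), IFITM3 (-0.59 ± 0.14) and HLA-DRA (-0.96 ± 0.28). Dioxin gave larger late values for IFITM2 (0.48 ± 0.15), IFITM3 (0.50 ± 0.13), HLA-B (0.44 ± 0.11), HLA-DRA (1.00 ± 0.29) and CD74 (1.87 ± 0.39). For dioxin this contrast carried a shift of -0.12 in the median of genes with at least 10 TPM.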

How the results depend on the processing

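Of 140 counts of called members recomputed under an alternative, 133 stayed within 1.5 times the reported count. Among counts of called pathway genes 376 did and 44 did not. Among single member values 13 turned sign with a call before or after, 50 others lost a call and 7 gained one, while 1190 did none of these. With DMSO as the only control, 3 members were called for isotretinoin (6 reported) and 0 for dioxin (6 reported). Without days 15 and 21, 3 were called for isotretinoin and 3 for dioxin. On days 1 to 6 alone, 0 were called for dioxin and 0 between the retinoids (3 reported). For vincristine, leaving out 1 library at a time gave 4 to 9 called, the lowest without day 6. Signs turned on days 1 to 6 alone for HLA-E with hydroxyurea (-0.015), (trans) Retinoic acid (-0.0087) and isotretinoin (-0.045), for HLA-DRA with (trans) Retinoic acid (0.38) and isotretinoin (0.14), for IFITM3 with isotretinoin (0.26) and for HLA-B with dioxin (-0.069). Leaving out 1 vincristine library at a time gave -0.026 to 0.85 for IFITM2, -0.080 to 0.72 for HLA-B, -0.12 to 0.61 for HLA-C, -0.032 to 0.70 for B2M, -0.15 to 0.74 for HLA-DRA and -0.062 to 0.68 for CD74, with the lowest of the first 4 without day 6 and of the last 2 without day 4. The cause was not tested, though fewer days or controls also mean fewer libraries. No paired analysis was possible because the labels give no replicate numbers. The day, which pairs libraries of different compounds, is already in each fit. Without counts, levels near 0 such as those of HLA-DRA and CD74 up to day 4 have no known precision.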
